A study of Mus musculus with 7 samples.

Results

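Contacts between restriction fragments that lie less than 10 kb apart were taken from a 5C (chromosome conformation capture carbon copy) table of 7 captured regions of the mouse genome. They were chosen by the tabulated distance alone and from every region. They numbered 1825 fragment pairs, 2.10% of the 86767 pairs in the table, and 1424 of the 1464 assayed fragments had at least 1 of them. The 5778 pairs at 10 kb to under 50 kb served as the comparison.

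In 5C, chromatin is fixed with formaldehyde and cut with a restriction enzyme, here HindIII. Fragments held close together are then joined by ligation, and each junction is read out with a forward primer on one fragment and a reverse primer on the other. Contact counts fall with the distance along the chromosome. The shortest pairs therefore have the highest counts, and they are commonly set apart from the search for loops. A count also depends on how well its 2 primers work, so pairs of similar distance can differ widely within a library.

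The libraries came from V6.5 embryonic stem (ES) cells, which are male and of a 129SvJae and C57BL/6 cross, and from neural progenitor cells (NPCs) derived from ES cells. Derivation ran through embryoid bodies grown for 4 days, 5 to 7 days of selection and 2 to 4 days of expansion with Fgf2. Each cell type had 2 libraries, fixed in 1% formaldehyde. The labels number these libraries without naming separate cultures. All p-values therefore rest on the spread of 2 libraries a type, which may be technical. In edgeR and limma that spread is pooled in part or in full over pairs, fragments or regions. The regions surround Oct4, Nanog, Sox2 and Klf4, transcription factor genes of pluripotent cells (Sox2 is also active in neural progenitors), Nestin, which encodes an intermediate filament of neural progenitors, and Olig1-Olig2, transcription factor genes of the neural lineage. The last region is a gene desert used as a negative control. The table gives distances but no chromosome coordinates, so the place of each gene among the fragments is not given here and no fragment sequence is shown. Fragments are named by their primer (FOR or REV) and number, as in the table.

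Short pairs were spread over all regions. Olig1-Olig2 held 378 of them, Klf4 350, Sox2 344, Oct4 305, Nestin 215, Nanog 166 and the gene desert 67. Their distances ran from 121 bp to 9985 bp, with a median of 4.51 kb against 29.6 kb for the comparison pairs. In 1027 of the 1825 pairs the 2 fragment numbers differed by 1, and these are called neighbouring pairs below. The table does not state how fragments were numbered. Distances fit positions that rise with the number, but whether adjacent numbers mark adjacent HindIII fragments throughout is not given.

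Total reads over all pairs were 10742380 and 8236666 in ES replicates 1 and 2, and 15899829 and 42673906 in NPC replicates 1 and 2. Short pairs took 24.8% and 10.0% of these reads in the ES replicates and 28.2% and 27.3% in the NPC replicates. ES replicate 2 stood apart from the other 3 libraries. The difference of 10.3 percentage points between cell types gave p = 0.33 in a two-sided exact permutation test, the smallest value that 2 against 2 libraries allow. Of the 3 pairs with the most reads in the table, all in the Oct4 region, 2 span 88.8 kb and 856 kb, and these took 23.0% and 6.95% of reads in ES replicate 1 but 34.9% and 18.3% in ES replicate 2. The third, Oct4 FOR024 REV025, is a short pair described below and shares FOR024 with the 88.8 kb pair, FOR024 REV005. With the 3 pairs left out, short pairs took 35.1%, 21.2%, 30.8% and 33.2% of the reads in ES replicates 1 and 2 and NPC replicates 1 and 2, and the difference between cell types was 3.84 percentage points.

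Short pairs were well covered. Their median raw count was 433 and 185 reads in the ES replicates and 444 and 860 in the NPC replicates. At least 10 reads in all 4 libraries were found for 1728 of them, or 94.7%, against 79.0% of the comparison pairs. Counts of 0 occurred in 2, 3, 2 and 0 short pairs of ES replicates 1 and 2 and NPC replicates 1 and 2, against 63, 79, 43 and 61 comparison pairs. A few pairs carried much of the signal: the 18 highest (the top 1%) held 18.2% and 16.5% of the short-range reads in the ES replicates and 34.8% and 32.6% in the NPC replicates.

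For levels, counts were scaled to the library with the smallest effective size (total reads times its TMM factor), which multiplied them by 0.668 in ES replicate 1, 1 in ES replicate 2, 0.541 in NPC replicate 1 and 0.285 in NPC replicate 2. The TMM factors were 1.23 and 1.08 in ES replicates 1 and 2 and 1.03 and 0.729 in NPC replicates 1 and 2. Scaling by library totals, without these factors, would lower NPC replicate 2 most and raise ES replicate 1. The median log2 fold change of short pairs (NPC over ES) was 0.14 with TMM factors and -0.25 with library totals. The order of ES and NPC levels given below can therefore depend on this scaling. The level of a set of pairs is the mean of log2(scaled count + 1). Short-range level fell from the shortest window to the longest in every library. Between windows of 0 to 2 kb and 8 to 10 kb, it went from 9.28 to 7.06 in ES replicate 1 and from 8.12 to 6.85 in ES replicate 2. In NPC replicates 1 and 2 it went from 8.73 to 7.40 and from 8.72 to 7.28. At 40 to 50 kb the 4 libraries lay between 5.00 and 5.18.

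The ES libraries thus differed most where pairs were shortest. ES replicate 1 exceeded ES replicate 2 by 1.16 (log2) at 0 to 2 kb, 0.92 at 2 to 4 kb, 0.56 at 4 to 6 kb, 0.43 at 6 to 8 kb and 0.22 at 8 to 10 kb, and by 0.08 at 10 to 20 kb. The NPC libraries differed by 0.01 to 0.15 over the same 5 short windows. Mean NPC levels exceeded mean ES levels by 0.02 at 0 to 2 kb and by 0.38 at 8 to 10 kb. In the shortest window both NPC values lay between the ES values, while in the 8 to 10 kb window both lay above them. The order at 8 to 10 kb depends on the TMM scaling, since library totals would set NPC replicate 2 lower. Across single pairs, the slope of log2 level per 2-fold distance was -0.67 and -0.39 in the ES replicates and -0.44 and -0.46 in the NPC replicates. The same slope among the comparison pairs was -0.80, -0.72, -0.95 and -0.96, steeper in every library.

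**Figure D1:**
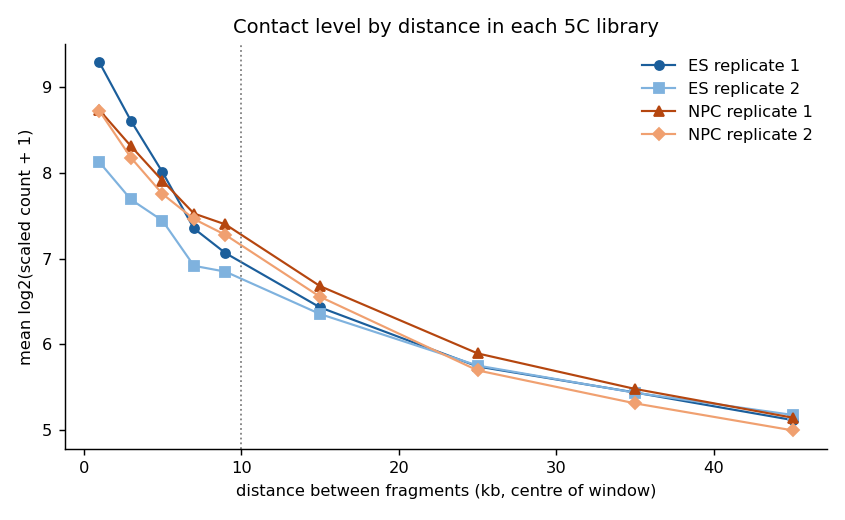
Mean log2(scaled count + 1) of fragment pairs (vertical axis) by distance in kb (horizontal axis, window centres) in each of the 4 libraries, with a dotted line at 10 kb. ES replicate 1 starts at 9.28 and ES replicate 2 at 8.12, with both NPC libraries between them, and the 4 curves lie close together beyond 10 kb.

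Grouping by fragment number separated the libraries further. Neighbouring pairs had levels of 8.78 and 7.83 in ES replicates 1 and 2 and of 8.38 and 8.27 in NPC replicates 1 and 2, so that ES replicate 1 was 0.96 above ES replicate 2. Pairs 4 or more numbers apart had levels of 6.77 and 6.60 in the ES libraries, a difference of 0.17, and of 7.22 and 7.11 in the NPC libraries. For these wider pairs both NPC libraries lay above both ES libraries with TMM scaling, by 0.48 on average. For neighbouring pairs the mean difference was 0.02 and the ES libraries lay on both sides. Library totals would set NPC replicate 2 lower, so the order for the wider pairs depends on the scaling. Fragment number and distance go together (median distance 2.96 kb for neighbouring pairs and 7.81 kb for those 4 or more apart). Within the single window of 8 to 10 kb, ES replicate 1 exceeded ES replicate 2 by 0.59 for 37 neighbouring pairs and by 0.08 for 132 pairs 4 or more numbers apart.

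**Figure D2:**
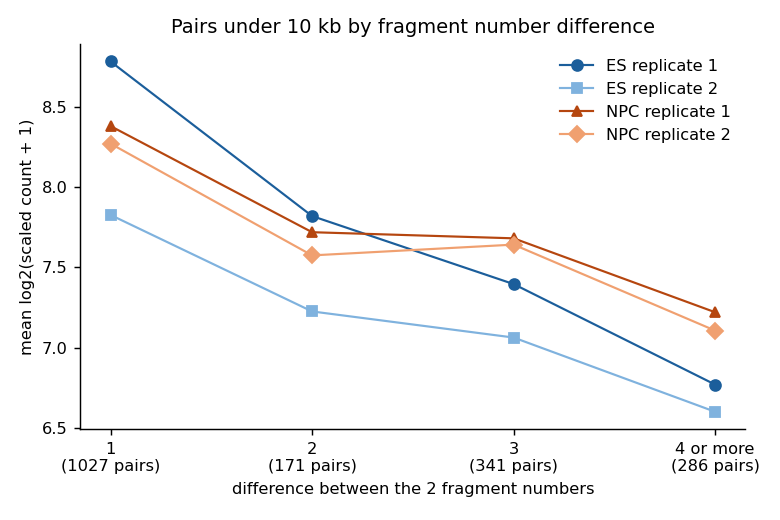
Mean log2(scaled count + 1) of pairs under 10 kb (vertical axis) by the difference between the 2 fragment numbers (horizontal axis, with the number of pairs) in each library. With TMM scaling the ES libraries are 0.96 apart at a difference of 1 and 0.17 apart at 4 or more, where both NPC libraries lie above both ES libraries.

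That excess of ES replicate 1 in neighbouring pairs was found in all 7 regions, from 0.79 in Nestin to 1.22 in the gene desert. In the other short pairs it was 0.21 to 0.50. NPC replicate 1 minus NPC replicate 2 ran from -0.22 to 0.51 for neighbouring pairs and from -0.19 to 0.71 for the others. Among the 798 pairs that were not neighbouring, the mean NPC level was above the mean ES level in 6 of 7 regions, by 0.20 in Klf4 to 0.84 in Olig1-Olig2, and below it by 0.73 in Nanog. In 4 of those 6 regions both NPC libraries lay above both ES libraries. Both counts of regions hold for the TMM scaling and depend on it. Among neighbouring pairs the NPC mean was higher in 4 regions and no region had both NPC libraries above both ES libraries.

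Short pairs were above comparison pairs in each of the 28 combinations of region and library. The difference in level, called the near-to-mid difference below, ran from 1.48 (2.79-fold) in Oct4, ES replicate 2, to 3.04 (8.23-fold) in the gene desert, ES replicate 1. Averaged over the 7 regions with equal weight, it was 2.44 and 1.75 in the ES replicates and 2.15 and 2.18 in the NPC replicates. Its mean over libraries was 2.13 ± 0.29 (SD, n = 4), or 4.38-fold. Flipping signs over the 4 libraries gave an exact two-sided p of 0.13, the smallest it can give. NPC minus ES was 0.08 (ES 2.09 ± 0.49, NPC 2.17 ± 0.02, SD, n = 2 each; two-sided exact permutation p = 1), well within the spread of the ES libraries. Its sign followed the ES library kept: 0.42 without ES replicate 1 and -0.27 without ES replicate 2. With neighbouring pairs left out, the near-to-mid difference was 1.65 and 1.31 in the ES replicates and 1.69 and 1.71 in the NPC replicates, and NPC minus ES was 0.22 (two-sided exact permutation p = 0.33, the smallest possible).

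By region and averaged over the 4 libraries, the near-to-mid difference was largest in the gene desert (3.04 and 2.11 in the ES libraries, 2.33 and 2.20 in the NPC libraries). The gene desert was highest in the ES mean (2.57), whereas Olig1-Olig2 was highest in the NPC mean (2.39, against 2.26 in the gene desert). Sox2 had 2.76 and 1.91 in the ES replicates and 2.31 and 2.31 in the NPC replicates. Oct4 was at the lower end with 1.89 and 1.48 in the ES replicates and 1.88 and 1.89 in the NPC replicates. ES replicate 2 was below both NPC libraries in 7 of 7 regions, and ES replicate 1 was above both in 4. The ES libraries differed by 0.40 to 0.94 within a region and the NPC libraries by at most 0.16. NPC minus ES ran from -0.31 in the gene desert to 0.41 in Olig1-Olig2, and limma, adjusting over the 7 regions, called none of them (adjusted p = 0.949 for each, 0 of 7 also below 0.05 unadjusted). Without ES replicate 1 it called 6 regions higher in NPC, and without ES replicate 2 it called 4 lower. In these fits the lone ES library is assumed to vary as little as the NPC libraries, with an SE of 0.0158 to 0.104 against 0.363 with all 4 libraries.

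**Figure D3:**
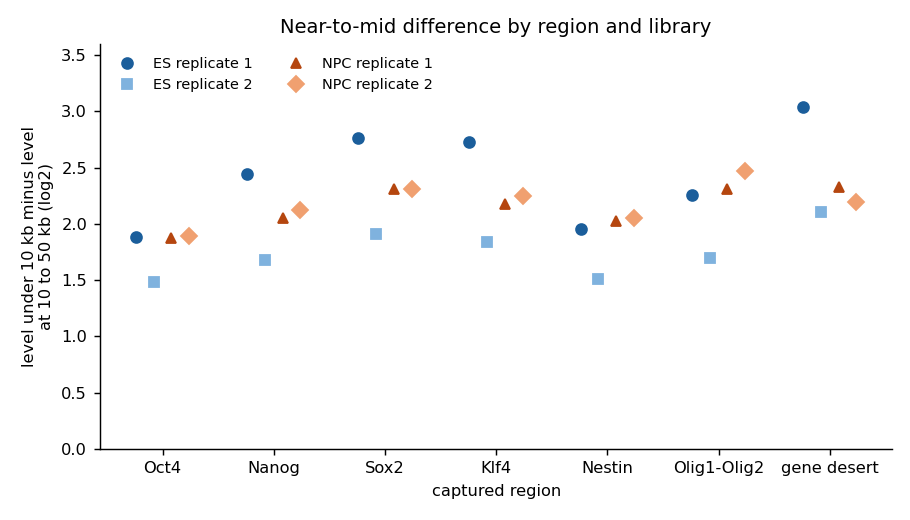
Level of pairs under 10 kb minus level of pairs at 10 to 50 kb (log2, vertical axis) by captured region (horizontal axis), 1 point per library. All 28 points are above 0, and ES replicate 2 is the lowest of the 4 libraries in every region.

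The short-range level itself differed between regions more than between cell types. Averaged over the 4 libraries it was 9.11 in Oct4, 8.06 in Nestin, 7.88 in Olig1-Olig2, 7.64 in the gene desert, 7.63 in Klf4, 7.32 in Nanog and 7.18 in Sox2. Oct4 was highest in all 4 libraries, and its lowest library lay above the highest of Nestin, whereas the later neighbours in this order overlapped over their libraries. NPC minus ES was lowest in Nanog at -0.73 (ES 7.69 ± 0.54, NPC 6.96 ± 0.37, SD, n = 2 each) and highest in Olig1-Olig2 at 0.67 (ES 7.55 ± 0.45, NPC 8.22 ± 0.01). None of the 7 was called by limma (adjusted p = 0.403 for Nanog and for Olig1-Olig2). In the comparison pairs the ES libraries lay closer together in every region, whereas the NPC libraries lay further apart in Nanog, Klf4 and Olig1-Olig2. The comparison pairs were called lower in NPCs by limma in Nanog (-0.76, adjusted p = 0.00333) and higher in the gene desert (0.82, adjusted p = 0.00333).

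The ES replicate difference ran in the same direction in every region, so levels were also centred on the mean of the 7 regions within each library, a step chosen after the data had been seen. Centred values sum to 0 over regions and are relative to the other regions. Nanog then lay at -0.05 and -0.09 in the ES replicates and at -0.78 and -1.12 in the NPC replicates. Both NPC libraries were far below both ES libraries, a difference of -0.88 ± 0.15 (SE, limma adjusted p = 0.000349). Olig1-Olig2 lay at -0.25 and -0.17 in the ES replicates and at 0.22 and 0.40 in the NPC replicates, a difference of 0.52 ± 0.15 (adjusted p = 0.0153, limma). The gene desert difference was 0.36 (adjusted p = 0.0817, limma), and Klf4, Nestin, Oct4 and Sox2 were between -0.26 and 0.21 and not called. Other settings called some of them in limma: the gene desert with primer effects removed (0.70, adjusted p = 1.84e-06), by the log2 of the mean (0.20, adjusted p = 0.0437), with the replicate block (0.36, adjusted p = 0.0191) and without NPC replicate 2 (0.56, adjusted p = 0.00281). Klf4 was called lower with primer effects removed (-0.27, adjusted p = 0.00833), by the log2 of the mean (-0.34, adjusted p = 0.00245) and without NPC replicate 1 (-0.32, adjusted p = 0.0288). Oct4 was called higher by the log2 of the mean (0.25, adjusted p = 0.0147) and without NPC replicate 1 (0.40, adjusted p = 0.0127). Without ES replicate 1 the adjusted p was 0.0704 for Nanog and 0.218 for Olig1-Olig2, and without ES replicate 2 it was 0.0547 and 0.198, in limma fits that assume the lone library to vary like the others. Over all centred alternatives run, the adjusted p for Nanog reached from 9.99e-08 to 0.0704 and the difference from -1.05 to -0.58. For Olig1-Olig2 the adjusted p ran from 2.12e-05 to 0.218 (limma). With neighbouring pairs left out, Nanog differed by -1.02 (adjusted p = 0.00557) and Olig1-Olig2 by 0.55 (adjusted p = 0.0338, limma). Among the comparison pairs the centred difference was -0.83 in Nanog (adjusted p = 0.000536) and 0.75 in the gene desert (adjusted p = 0.000761), and 0.19 in Olig1-Olig2 (adjusted p = 0.559, limma).

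**Figure D4:**
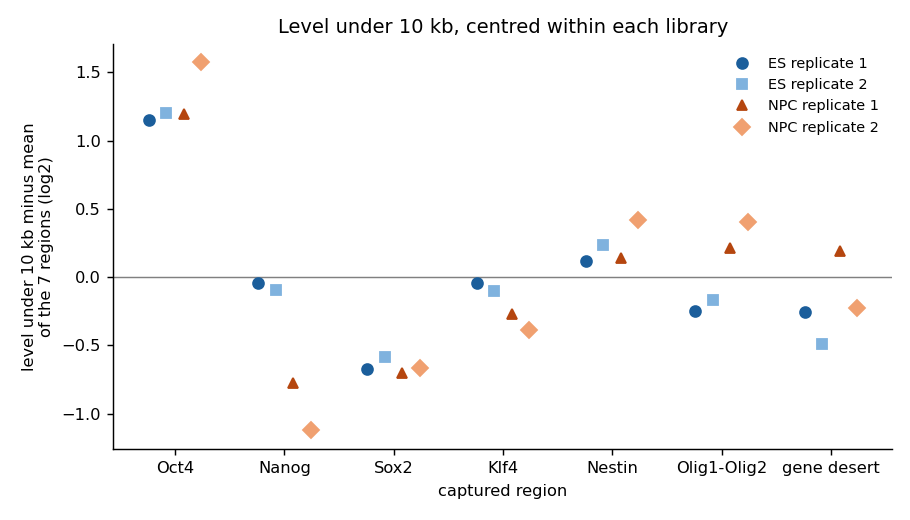
Level of pairs under 10 kb minus the mean of the 7 regions in the same library (log2, vertical axis) by captured region (horizontal axis), 1 point per library. In Nanog both NPC points lie below both ES points, in Olig1-Olig2 both lie above, and Oct4 is highest in every library.

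Single short pairs varied by much more than regions. The SD of log2(scaled count + 1) over pairs was 2.43 and 2.09 in the ES replicates and 2.43 and 2.99 in the NPC replicates. It was 1.69, 1.31, 1.41 and 1.58 after the median effect of each primer, estimated from pairs at 10 kb or more, had been removed. The distance trend was left in. Between replicates, 16.2% of short pairs tested differed by over 2-fold in ES cells after the median shift had been taken out, and 39.8% in NPCs. Across pairs, log2 counts correlated at Pearson's r = 0.957 between the ES libraries and 0.931 between the NPC libraries, against 0.645 to 0.786 between cell types (1825 pairs that share primers and so are not independent).

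Pairs with the most contacts were ranked by the mean scaled count over all 4 libraries, in which pairs high in NPCs weigh more. Of the 10 highest short pairs, 5 were in Oct4, 3 in Olig1-Olig2 and 2 in Klf4, and 6 were neighbouring pairs. Together they held 8.59% and 7.91% of the short-range reads in the ES replicates and 27.3% and 24.6% in the NPC replicates. All 10 were higher in both NPC libraries than in both ES libraries, which this ranking favours, and 2 passed the pair test described next. Ranked by the ES mean alone, a step added after the data had been seen, the 10 highest pairs were 6 in Oct4, 2 in Klf4 and 1 each in Nestin and Nanog, and 4 of them were also among the 10 above. In that ES ranking 4 pairs were higher in both NPC libraries, 2 were higher in both ES libraries and 4 overlapped. By the mean of all 4 libraries the highest pair was Oct4 FOR024 REV025 (2.45 kb). It had 34096 and 10980 reads in the ES replicates and 547682 and 1324170 in the NPC replicates. Its log2 fold change was 4.32 ± 1.07 (SE, edgeR adjusted p = 0.04995, just under the threshold of 0.05). The other called pair, Olig1-Olig2 FOR249 REV250 (4.71 kb), had 7701 and 1845 reads in ES cells and 70677 and 185496 in NPCs (log2 fold change 3.70 ± 0.88, edgeR adjusted p = 0.0466). Oct4 FOR447 REV446 (3.48 kb) was the most even of the 10, with 24300 and 14217 reads in ES cells and 69407 and 75833 in NPCs (0.96 ± 0.73, edgeR adjusted p = 0.409). Both called pairs lost their call without NPC replicate 1 or 2, and the Olig1-Olig2 pair also without ES replicate 2. The log2 fold change was 4.48 and 4.15 for the Oct4 pair without NPC replicates 1 and 2. For the Olig1-Olig2 pair it was 3.92 and 3.47 there, and 3.11 without ES replicate 2.

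Each pair of the whole table with a mean of at least 10 reads was tested with edgeR's quasi-likelihood test, NPC against ES, and p-values were adjusted over all 46967 pairs tested. Of the short pairs, 1817 were tested and 8 fell under the filter. Higher counts in NPCs were called for 157 of them (8.64%) and higher counts in ES cells for 80 (4.40%), against 4.9% and 2.33% of all pairs tested (7.22% in either direction). Comparison pairs were called at 7.67% and 3.76%, so the share of called pairs was close to theirs. The deeper coverage at short distance goes with more calls, and its part in these shares was not tested. All 157 and all 80 had NPC and ES counts that did not overlap after scaling, as did 1010 of the 1580 pairs not called. The smallest absolute log2 fold change called was 2.01.

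The number of calls depended on which libraries were kept. The sign of the fold change was kept in 236 called pairs without ES replicate 1 and in 237 without each other library. For counts that do not overlap this is nearly fixed in advance. Of the 237 called pairs, 45 were still called without ES replicate 1, 14 without ES replicate 2, 230 without NPC replicate 1 and 114 without NPC replicate 2. In these fits the lone library of a cell type is assumed to vary like the other type. Without one library each, the called pairs numbered 63 higher in NPCs and 1 lower (ES replicate 1 left out), 6 and 9 (ES replicate 2), 443 and 490 (NPC replicate 1), and 102 and 36 (NPC replicate 2). The balance of directions depended on the processing: 66.2% of called short pairs were higher in NPCs with TMM factors from all pairs, 46.4% with library totals, 56.4% with TMM factors from pairs under 50 kb and 54.1% with factors from pairs under 10 kb. It was 37.8% with a mean of at least 50 reads (233 higher in NPCs, 384 lower), which turned the balance, and 50.9% with the replicate block (198 and 191). Over all pairs tested the median log2 fold change was 0.12, -0.28, 0.01 and -0.08 under the 4 scalings, and that of the short pairs was 0.14, -0.25, 0.03 and -0.001.

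The called pairs were uneven over regions. In Olig1-Olig2, 47 of 376 tested short pairs were higher in NPCs and 6 lower. In Nanog the balance was the other way, with 21 of 165 called higher in ES cells and 3 higher in NPCs. In the gene desert 14 of 67 were higher in NPCs and 0 lower (edgeR, with 23 and 16 at an unadjusted p below 0.05). The gene desert counts were 14 and 12 with the replicate block, 15 and 7 with TMM factors from pairs under 50 kb, 18 and 13 with those from pairs under 10 kb, and 15 and 18 of 65 with a mean of at least 50 reads. Oct4 had 27 and 10 of 305, Klf4 24 and 11 of 350, Sox2 24 and 16 of 340, and Nestin 18 and 16 of 214. With library totals these 4 regions had more pairs called higher in ES cells. Their counts were 8 and 10 in Oct4, 11 and 12 in Klf4, 9 and 17 in Sox2, and 9 and 16 in Nestin. With the replicate block Klf4 (30 and 39) and Sox2 (34 and 41) did so too. With a mean of at least 50 reads all 4 did. Counts there were 40 and 53 in Oct4, 35 and 97 in Klf4, 35 and 67 in Sox2, and 33 and 41 in Nestin. Over the 14 fits run, more pairs were higher in NPCs in 11 for Oct4, 6 for Klf4, 9 for Sox2 and 10 for Nestin. More were higher in ES cells in 2, 7, 4 and 3 of them. Olig1-Olig2 had more pairs higher in NPCs in all 14 fits run, and Nanog had more pairs higher in ES cells in all but the fit without ES replicate 1 (2 and 1). In Olig1-Olig2, Nanog and the gene desert the comparison pairs leaned the same way, with 120 and 30 of 1060 in Olig1-Olig2, 15 and 39 of 484 in Nanog and 30 and 2 of 158 in the gene desert.

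Pairs called in the 2 directions differed in length. Those higher in NPCs had a median distance of 5.93 kb and 61 of 157 were neighbouring pairs (38.9%). Those higher in ES cells had a median of 3.51 kb and 56 of 80 were neighbouring (70.0%). Between 0 and 2 kb, 5.34% of tested pairs were called higher in NPCs and 7.12% were called lower. Between 8 and 10 kb these shares were 13.0% and 3.41%. The ES replicate difference described above moved with distance and fragment number in the same windows, and its part in these shares was not tested.

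Several large differences came from pairs that were nearly silent in one cell type. Olig1-Olig2 FOR127 REV124 (7.31 kb) had 0 and 0 reads in the ES replicates and 367 and 2097 in the NPC replicates, at least 159-fold higher in NPCs when 3 counts per ES library are taken as the floor (edgeR adjusted p = 0.0225). In Oct4 FOR034 REV035 (2.93 kb), 7 and 2 reads stood against 1706 and 3693, a log2 fold change of 8.11 ± 0.74 (adjusted p = 0.0225, edgeR). In both pairs every NPC library was far above every ES library.

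Sox2 FOR171 REV174 (6.63 kb) had 6 and 1 reads in ES cells and 681 and 3596 in NPCs (log2 fold change 7.98 ± 0.93, edgeR adjusted p = 0.0225). In the gene desert, FOR053 REV056 (9.10 kb) had 8 and 6 reads in ES cells and 1257 and 3168 in NPCs (7.12 ± 0.66, edgeR adjusted p = 0.0225). Also there, FOR018 REV017 (5.88 kb) had 1 and 0 reads against 197 and 131, a depth-scaled ratio of 153 with an exact 95% interval of 27.2 to 6053. Such intervals and floors cover counting error only, because PCR copies are not independent molecules.

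Olig1-Olig2 FOR238 REV232 (7.77 kb) had 39 and 24 reads in ES cells and 2158 and 9002 in NPCs (log2 fold change 6.21 ± 0.73, edgeR adjusted p = 0.0225). Klf4 FOR264 REV263 (2.20 kb) had 17 and 12 reads against 1298 and 1159 (5.46 ± 0.66, edgeR adjusted p = 0.0225). In Nestin, FOR074 REV075 (8.09 kb) had 466 and 115 reads against 6839 and 26606 (4.72 ± 0.82, edgeR adjusted p = 0.0274). The Nanog region, where calls were mostly the other way, had FOR104 REV103 (1.42 kb) with 19 and 8 reads in ES cells and 438 and 1269 in NPCs (4.82 ± 0.61, edgeR adjusted p = 0.0225).

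Losses in NPCs were smaller in size, with a largest log2 fold change of -5.00. That pair, Sox2 FOR159 REV162 (8.56 kb), had 219 and 167 reads in ES cells and 14 and 9 in NPCs (SE 0.71, edgeR adjusted p = 0.0233). Nanog FOR014 REV017 (9.76 kb) had 1593 and 563 reads in ES cells and 40 and 110 in NPCs (-4.93 ± 0.64, edgeR adjusted p = 0.0225). Nestin FOR144 REV142 (7.91 kb) had 118 and 91 reads in ES cells and 6 and 16 in NPCs (-4.40 ± 0.65, edgeR adjusted p = 0.0239). None of the 3 was a neighbouring pair. Nor was Sox2 FOR130 REV133 (7.24 kb), with 44 and 20 reads in ES cells and 3 and 3 in NPCs (-4.31 ± 0.97, edgeR adjusted p = 0.0417).

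The other large losses named here were in neighbouring pairs. Oct4 FOR004 REV003 (1.35 kb) had 1823 and 249 reads in ES cells and 101 and 88 in NPCs (log2 fold change -4.21 ± 0.87, edgeR adjusted p = 0.0361). Klf4 FOR337 REV336 (2.08 kb) had 20913 and 3290 reads in ES cells and 1133 and 1204 in NPCs (-4.18 ± 0.90, edgeR adjusted p = 0.0383). Olig1-Olig2 FOR213 REV212 (2.48 kb) had 432 and 142 reads in ES cells and 41 and 30 in NPCs (-3.83 ± 0.70, edgeR adjusted p = 0.0297). In each of them ES replicate 1 was well above ES replicate 2 also after scaling, and both ES libraries were above both NPC libraries.

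The rule for the largest differences named 26 pairs, up to 2 per region and direction. Of these, 6 were called with any 1 of the 4 libraries left out: Nanog FOR014 REV017, Oct4 FOR034 REV035, Olig1-Olig2 FOR127 REV124 and FOR238 REV232, Sox2 FOR171 REV174, and gene desert FOR053 REV056. Without ES replicate 1, 10 of the 25 tested were called, without ES replicate 2 9 of 26, without NPC replicate 1 25 and without NPC replicate 2 18.

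Among the shortest pairs of each region, 2 of 7 were called. Oct4 FOR339 REV340 (253 bp) had 2205 and 871 reads in ES cells and 12087 and 28777 in NPCs (log2 fold change 2.65 ± 0.65, edgeR adjusted p = 0.0488). Nanog FOR274 REV273 (458 bp) went the other way, with 1373 and 278 reads in ES cells and 143 and 73 in NPCs (-3.62 ± 0.85, edgeR adjusted p = 0.0449). Without either ES library both lost the call (adjusted p = 0.0570 and 0.196 for Oct4, 0.230 and 0.0648 for Nanog, without ES replicates 1 and 2), as they did without NPC replicate 2 (0.150 and 0.0863).

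The shortest pair of all, Olig1-Olig2 FOR138 REV137 (121 bp), had 558 and 157 reads in ES cells and 1159 and 1613 in NPCs and was not called (1.03 ± 0.57, edgeR adjusted p = 0.266). Its counts were far below those of the 10 highest pairs, so the closest pair was not the strongest. At the 10 kb limit, the longest pair inside was Oct4 FOR047 REV048 (9985 bp), with 18189 and 6878 reads in ES cells and 39116 and 78206 in NPCs. The first pair outside was Klf4 FOR008 REV005 (10004 bp), with 332 and 129 reads in ES cells and 331 and 315 in NPCs.

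Most called short pairs moved with their fragments. For each fragment, the median log2 fold change of its comparison pairs at 10 to 50 kb was taken. Both fragments of the pair had a median in the pair's direction in 130 of the 157 pairs higher in NPCs and in 68 of the 80 lower ones, against 49.8% of all tested short pairs. Across 1813 short pairs, the log2 fold change correlated with the mean of its 2 fragments' medians at Pearson's r = 0.816. This is a description over pairs that share primers, fragments and the same 4 libraries. Of the called pairs, 105 of the 157 and 34 of the 80 shared a fragment with another called pair of the same direction. Fragments with a short pair lay in 2.56 of them on average, so some sharing follows from the design. The share to be had from scattered calls was not computed. In Oct4 FOR034 REV035 the fragments' own medians were 2.39 and 2.11, and in Nanog FOR014 REV017 they were -2.14 and -2.60. Nearby and wider contacts of these fragments thus differed in the same direction.

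**Figure D5:**
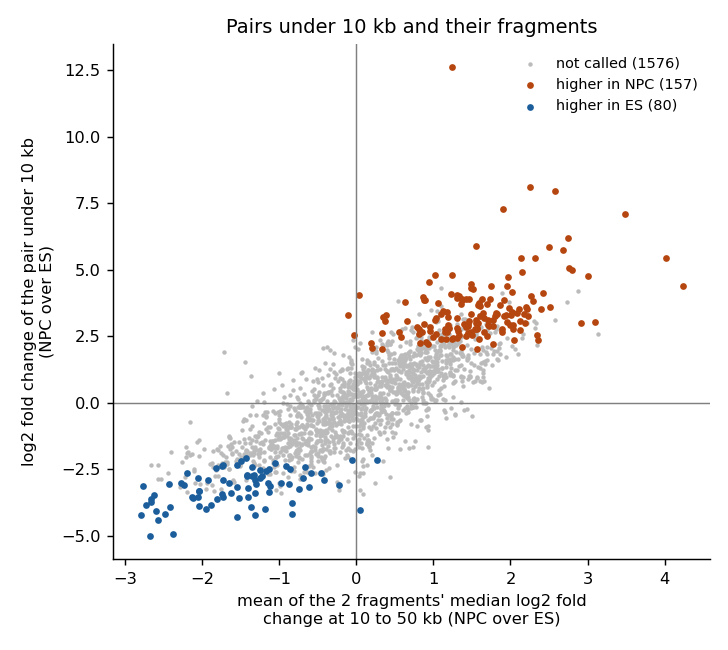
Log2 fold change (NPC over ES) of each tested pair under 10 kb (vertical axis) against the mean of its 2 fragments' median log2 fold changes at 10 to 50 kb (horizontal axis), coloured by the edgeR call. The called pairs lie mostly in the upper right and lower left. The highest point, a pair with 0 reads in both ES libraries, has a fitted value that depends on the prior count.

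An effect shared by all pairs of a fragment drops out when its short-range reads are divided by its reads at 10 to 50 kb. Effects of its partner fragments do not, since the 2 classes have different partners. The ratio of short-range to comparison reads was compared between cell types with edgeR for 1422 fragments with pairs in both classes. The library was a block. In this test the spread was pooled in full over fragments, and each pair enters the sums of both its fragments. A small p-value here therefore does not measure the spread of that fragment over its own libraries. The median log2 ratio over fragments was 0.81 and 0.08 in the ES replicates and 0.33 and 0.24 in the NPC replicates. It was called higher in NPCs for 73 fragments (5.13%) and lower for 96 (6.75%), or 11.9% in either direction. Of these, 33 of 73 and 17 of 96 also lay in a short pair called in the same direction. Only 1 short pair was held by 48 of the 169 called fragments, against 212 of the 1422 tested. The short-range reads of such a fragment rest on a single partner. Among all 1424 fragments with a short pair, 242 lay in a pair called higher in NPCs and 140 in a pair called higher in ES cells. Calls held unevenly: of the 169 fragments, 135 were called without ES replicate 1, 158 without ES replicate 2, 38 without NPC replicate 1 and 3 without NPC replicate 2.

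Oct4 FOR024, an end of the short pair with the highest mean scaled count, had 39329 short-range and 12552 comparison reads in ES replicate 1, and 13116 and 7920 in ES replicate 2. In NPC replicate 1 it had 555161 and 36588, and in NPC replicate 2 1348161 and 94359. The log2 ratio was therefore 1.65 and 0.73 in ES cells and 3.92 and 3.84 in NPCs, a difference of 2.69 ± 0.44 (edgeR adjusted p = 4.27e-07, but 0.354 without NPC replicate 2). Its short-range reads rose beyond its wider ones. Most of them in NPCs came from the pair with REV025 (547682 and 1324170 reads). The comparison pairs of REV025 had a median log2 fold change of 2.04, against 0.92 for those of FOR024. The part of this partner in the ratio was not tested. FOR024 is also an end of the 88.8 kb pair FOR024 REV005, which is in neither distance class. That pair took 23.0% and 34.9% of all reads in the ES replicates and 14.3% and 21.3% in the NPC replicates.

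Oct4 REV449 had log2 ratios of 1.10 and 0.69 in ES cells and 4.63 and 3.92 in NPCs (edgeR difference 3.38 ± 0.57, adjusted p = 1.00e-06, and 0.0517 and 0.0543 without NPC replicates 1 and 2). Olig1-Olig2 REV080 had 2.22 and 1.11 in ES cells and 4.14 and 4.36 in NPCs (2.59 ± 0.48, edgeR adjusted p = 1.41e-05, and 0.487 without NPC replicate 2). It is an end of FOR081 REV080, the short Olig1-Olig2 pair with the most reads in both NPC libraries (in both ES libraries FOR326 REV320 had more, 20327 and 5432). FOR081 REV080 had 12494 and 2686 reads in ES cells and 122435 and 250116 in NPCs and missed the threshold of the pair test (edgeR adjusted p = 0.0530).

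In the other direction, Olig1-Olig2 REV263 had 1 short pair, with 644 and 466 reads in ES cells and 151 and 414 in NPCs. Its 11 comparison pairs had 5712 and 2834 reads in ES cells and 48945 and 125533 in NPCs. The log2 ratio was -3.15 and -2.60 in ES cells and -8.33 and -8.24 in NPCs (difference -5.41 ± 0.54, edgeR adjusted p = 3.56e-20). Here the wider contacts differed more in reads than the short one.

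Oct4 FOR021 was alike, with 2659 and 731 short-range reads in ES cells, 3387 and 16898 in NPCs, and comparison reads of 11974 and 4867 in ES cells and 257062 and 576316 in NPCs (-3.22 ± 0.47, edgeR adjusted p = 4.95e-09). Nanog REV227 differed from both, since its single short pair had 2065 and 359 reads in ES cells and 333 and 155 in NPCs, while its single comparison pair had 30 and 25 reads in ES cells and 174 and 163 in NPCs (-4.57 ± 0.80, edgeR adjusted p = 2.45e-06). The remaining named fragments were Oct4 FOR200 and FOR206, higher in NPCs by 3.50 ± 0.60 and 2.40 ± 0.49, and Olig1-Olig2 FOR270 and Klf4 FOR337, with log2 differences of -3.89 ± 0.57 and -3.13 ± 0.58. These 4 lost their call without NPC replicate 2 (edgeR adjusted p = 0.0597 to 0.559), and Oct4 FOR206 also without NPC replicate 1 (0.0604). Olig1-Olig2 REV263, Oct4 FOR021 and Nanog REV227 were called with each library left out in turn. A called fragment can thus owe its ratio to either class of contacts.

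The authors' own ratio of reads to a predicted signal was also higher for short pairs. In the authors' deposited table the median log2 ratio was 0.36 and 0.21 in the ES replicates and 0.36 and 0.64 in the NPC replicates for short pairs, and -0.18, -0.01, 0.10 and 0.28 for comparison pairs. In the deposited table a ratio over 2 was reached by 27.8%, 13.6%, 20.8% and 33.5% of short pairs and by 5.24%, 5.19%, 11.6% and 20.0% of comparison pairs. ES replicate 2 had the lowest share of short pairs above 2, as it had the lowest level.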

How the data were processed

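Reads per primer pair were measured by 5C in 2 ES and 2 NPC libraries. The authors deposited raw counts per pair, which are whole numbers and not normalized, a predicted signal, and their ratio, in which 5 values differed from reads over prediction by more than 0.001 and 0 reads were entered as 0.25. Bowtie is named per the submitters' processing notes. The sources used here do not give the model behind the prediction. Another 12 columns of per-sample values and 2 peak lists were left aside. Positions rebuilt from the distances misfit by at most 0.56 bp.

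Pairs with a mean of at least 10 reads were tested with edgeR 4.0.16 (R 4.3.3, TMM, cell type as the only term, Benjamini-Hochberg adjustment over all pairs, threshold 0.05). Fragments were tested by the interaction of distance class and cell type, and regions with limma 3.58.1. DESeq2 1.42.0 was an alternative. The test code was run on simulated data with known changes, in which the spread for regions and fragments was set by hand. Such a run does not give the error rates of the tests in these data. SE of a fold change is the estimate over the square root of the test's F. Members, lists and rules were chosen with earlier results of these data known. Named are the 10 pairs with the highest mean scaled count, per region the 2 called pairs with the largest change in each direction and the shortest pair, the pairs beside the 10 kb limit, and up to 5 fragments per direction with the lowest p. Same-numbered libraries did not deviate together (r = -0.06 over 1817 short pairs, -0.14 over all pairs tested), so replicate numbers were not used as pairs.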

Additional observations from a re-analysis of the deposited data

How the results depend on the processing

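Counts of called short pairs moved with most settings. Against 157 higher in NPCs, there were 71 with library totals, 336 with no count filter, 413 with DESeq2 and 364 with TMM factors from pairs under 10 kb (added after the data had been seen). Against 80 higher in ES cells, there were 161 with TMM factors from pairs under 50 kb, 168 with no filter, 384 with a mean of at least 50 reads, 288 with DESeq2 and 309 with factors from pairs under 10 kb. With 1 library left out, the counts ran from 6 to 443 and from 1 to 490. The cause was not tested. All 237 called pairs were called again with DESeq2, and 147 with library totals.

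With the replicate number as a block, 191 short pairs were higher in ES cells, 215 of the 237 stayed called, and the pair Sox2 FOR197 REV198 changed from -0.0055 to 0.0674. The crossed block, added after the data had been seen, gave 330 and 129.

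Fragment calls ran from 0 to 179 (NPC) and 3 to 250 (ES) and region calls from 0 to 6 (higher) and 0 to 4 (lower) with 1 library left out. At 0 fragments, without NPC replicate 2, edgeR had 39 at an unadjusted p below 0.05.

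The pooled NPC minus ES near-to-mid difference turned to -0.0154 with under 5 kb as near and to -0.0302 with 10 to 30 kb as the comparison, and ran from -0.27 to 0.42 with 1 library left out. Region differences not called with all libraries changed sign: Klf4 0.23 and Sox2 0.35 with neighbouring pairs left out, Sox2 0.0385 by medians, Oct4 -0.0310 by the log2 of the mean, and Nanog -0.0972 (pseudocount 5), -0.0152 (mean of at least 10 reads), -0.0834 (medians), -0.0106 (library totals), -0.0343 (10 to 30 kb) and -0.0614 (primer effects removed). With 1 library left out, Klf4 ran from -0.51 to 0.37, Nanog from -0.35 to 0.41, Oct4 from -0.000701 to 0.40, Sox2 from -0.448 to 0.40 and the gene desert from -0.780 to 0.156. Centred levels changed sign in Nestin (-0.0279 without neighbouring pairs, -0.0769 by the log2 of the mean, -0.0356 to 0.241 with 1 library left out) and Sox2 (0.18 without neighbouring pairs). The uncalled pair Sox2 FOR197 REV198 was at 0.22 with no filter, 0.0644 with the crossed block and -0.482 to 0.568 with 1 library left out, and Nestin FOR139 REV137 ran from -1.06 to 0.642.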
